A study of Rattus norvegicus with 13 samples.

Results

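The genes described here are those of the major histocompatibility complex (MHC), of antigen processing and of the interferon response in rat mammary epithelial cells. They were taken by symbol: every gene whose name starts with RT1-, the prefix of the rat MHC, together with B2m, Tap1, Tap2, Tapbp, Cd74, Ciita, Psmb8 to Psmb10, factors of the STAT and IRF families, and the Isg15, Mx, Oas, Oasl, Ifit, Ifih1, Usp18, Gbp and Rsad2 genes. They are 68 of the 14790 genes measured, with 66 distinct symbols, because RT1-CE16 and RT1-DMb each stand for 2 Ensembl genes. RNA-seq was made from Wistar-Furth rats of 2 ages, 6 rats at 6 weeks, when this susceptible strain enters its window of susceptibility to mammary cancer, and 7 rats at 10 weeks, when it leaves it. Nothing distinguished the groups in the labels other than age, and each library came from a different rat. Abdominal and inguinal glands were freed of lymph nodes, digested with collagenase and loaded on a 40 µm filter, and RNA came from the pieces of duct kept. The paper describes its RNA-seq material as mainly epithelial, with some stromal fibroblasts and immune cells. The values are normalized counts, that is, estimated read counts after normalization, given as whole numbers, and their totals ran from 13261906 to 15659533 per rat.

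Class I MHC molecules, carried with B2m on nearly every nucleated cell, display peptides cut by the proteasome and pumped into the endoplasmic reticulum by the Tap transporter. Class II molecules, made mostly by B cells, dendritic cells and macrophages under the control of Ciita, display peptides from engulfed material and are assembled on the Cd74 chain. Interferons signal through STAT and IRF factors, among them Stat2 and Irf9, to raise a set of antiviral effectors and also the class I machinery, and mammary tissue houses both epithelial cells that answer interferon and resident immune cells.

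Rats did not all stand alike. Once the mean of each age was taken out, the first component of the remaining variation across genes held 28.3% of it and set apart 5 rats (rats 75 and 80 at 6 weeks, rats 78, 81 and 83 at 10 weeks) from the other 8 (rats 70, 71, 84 and 86 at 6 weeks, rats 72, 74, 85 and 87 at 10 weeks). No label names this split, which was drawn from the same values, and the 5 are called the smaller set and the 8 the larger set. Since the split follows the variation left within the ages, a fit that takes it into account has less spread by construction, and calls gained by having the set as a term are left aside, as is that fit in ranges of adjusted p over alternatives. Rats 78 and 80 also had the coarsest steps in their values, with 16 and 15 of the whole numbers from 1 to 30 never seen, and the most genes at 0 (434 and 463).

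At 6 weeks most of the interferon-induced effectors, the factors Stat2, Irf7 and Irf9, and part of the class I machinery were higher than at 10 weeks. Of the 7 class II genes 0 passed the test, too few genes to set that count apart from the shares of all genes given next. Of the 68 genes, 25 were higher at 6 weeks and 1 lower at an adjusted p under 0.05 in limma, fitted to all 14790 genes on log2(normalized count + 1), in which 8.71% of all genes were higher and 7.39% lower (16.8% and 14.8% at an unadjusted p under 0.05). The median log2 fold change, 6 weeks over 10 weeks, was 0.58 over the 68 genes and 0.03 over all genes. In 15 of the 68 genes every rat at 6 weeks lay above every rat at 10 weeks, and in 0 of them every rat lay below, where 3.29% and 2.78% of all genes did so. By role, 13 of 21 effectors, 3 of 9 STAT and IRF factors, 7 of 22 class I MHC genes, 1 of 4 class I loading genes and 1 of 3 immunoproteasome genes were higher, while 0 of 7 class II MHC genes and 0 of their 2 partners were called in either direction in limma (1, which was lower, and 0 at an unadjusted p under 0.05). The median of every role kept its sign under 2 other scalings, which moved the median of all genes by -0.02 and 0.05. The gene called lower was RT1-M2. In such bulk samples, fewer cells of a type and less RNA per cell cannot be told apart.

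Within the larger set alone, 30 of the 68 genes were higher and 1 lower in limma, where 13.6% and 9.92% of all genes were, an alternative chosen after seeing the data. Its rats were grouped by the variation left within the ages, so they have less spread by construction. Calls gained in the larger set, here and below, therefore add no support. All 25 genes higher in the 13 rats had positive log2 fold changes in the larger and in the smaller set. They were chosen as higher over these same rats, so the shared sign was largely fixed by that choice and is no separate test. The smaller set, with 2 rats against 3, gave 0 calls among the 68 genes and 0 among all genes in limma, and 24 of the 68 had an unadjusted p under 0.05 there, where 1976 of 14770 genes did. Leaving out any 1 rat kept the call of 20 of the 26 called genes, and the 6 that lost it for some rats are named as such.

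**Figure D1:**
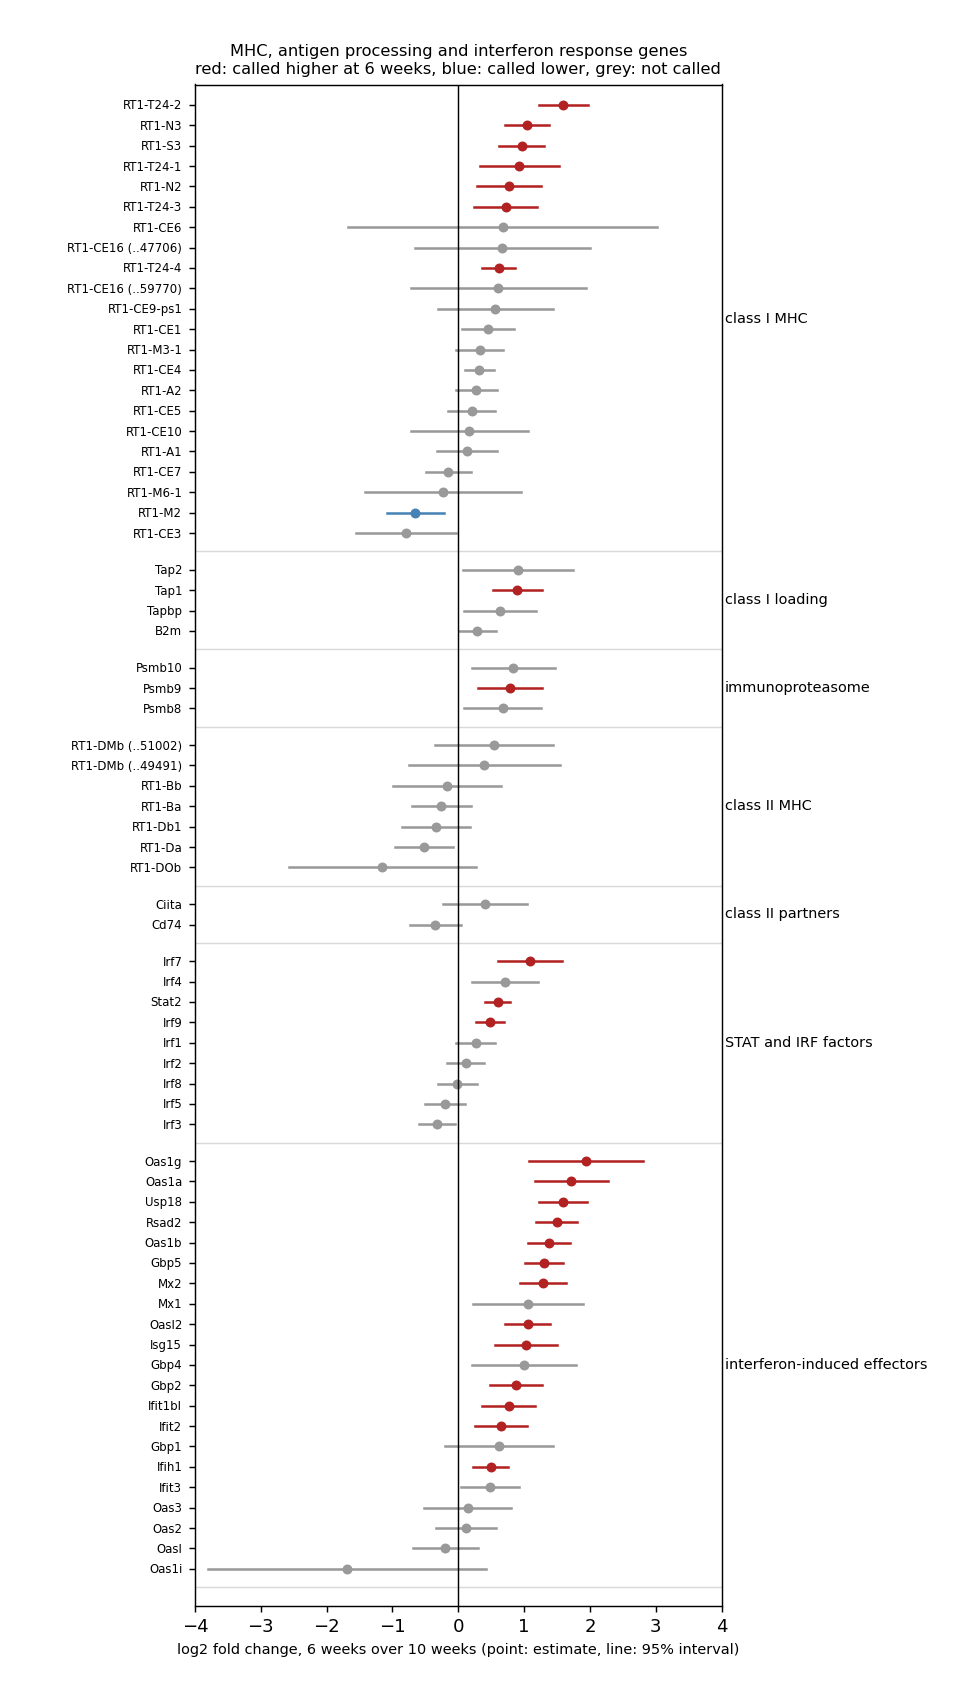
Log2 fold change (6 weeks over 10 weeks, horizontal axis) of all 68 genes by role, with 95% intervals from limma. Points called higher at 6 weeks are red, called lower blue and not called grey. Red points fill most of the effector block (13 of 21), and the class II block has none.

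The strongest evidence among the effectors was for Rsad2, which encodes viperin, an enzyme that blocks viral replication. Its normalized counts ran from 2215 to 3495 with a median of 2853.5 at 6 weeks, and from 745 to 1202 with a median of 1033 at 10 weeks. All 6 younger rats were above all 7 older ones (log2 fold change 1.49, standard error 0.15, adjusted p = 9.93e-05). Usp18, a protease that strips the ubiquitin-like Isg15 from proteins and damps interferon receptor signalling, had 163 to 251 (median 213.5) at 6 weeks and 46 to 93 (median 72) at 10 weeks. Here too the ages did not overlap (log2 fold change 1.59, standard error 0.17, adjusted p = 0.00017). Isg15 itself had 148 to 277 (median 253) against 81 to 182 (median 101). The ages overlapped through rat 78 at 10 weeks, with 182, and 4 of 6 younger rats stayed above it (log2 fold change 1.03, standard error 0.22, adjusted p = 0.0076).

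The oligoadenylate synthetases, which sense double-stranded RNA and switch on the nuclease RNase L, divided into genes that passed the test and genes that did not. Oas1a ran from 102 to 210 (median 140) at 6 weeks and from 25 to 76 (median 41) at 10 weeks. For Oas1b the figures were 217 to 299 (median 261) and 70 to 140 (median 105), and for the related Oasl2 they were 168 to 263 (median 196) and 72 to 134 (median 100). None of these 3 overlapped between the ages, with log2 fold changes of 1.72, 1.38 and 1.05 and adjusted p of 0.00097, 0.00017 and 0.0011. Oas1g had the largest fitted change of all 68 genes, 1.94 (standard error 0.40, adjusted p = 0.0069), on 30 to 87 normalized counts (median 62) at 6 weeks and 4 to 28 (median 15) at 10 weeks. The related Oas1i was at 0 in 5 of 6 younger and 2 of 7 older rats and equalled Oas1g in the other 6 rats, so the division of reads between these copies is uncertain. It was called lower without rat 75, the 1 younger rat above 0, and in the larger set, where all younger rats are at 0 (adjusted p = 0.043 and 0.049, and up to 0.47 over its alternatives, those of the smaller set aside). Oas2, Oas3 and Oasl were not called, with log2 fold changes of 0.12, 0.14 and -0.20.

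Among the interferon-induced GTPases, Mx2, a dynamin-like antiviral protein, had 1050 to 1661 (median 1316.5) at 6 weeks and 401 to 797 (median 491) at 10 weeks without overlap (log2 fold change 1.29, adjusted p = 0.00033). Mx1 had a log2 fold change of 1.06 but an adjusted p of 0.077, with rat 78 at 10 weeks at 366 where the median of its age was 105. Without that rat, without it and rat 80 together, and in the larger set Mx1 was called (adjusted p = 0.0075, 0.014 and 0.018, and up to 0.17 over its alternatives, those of the smaller set aside). Of the guanylate-binding proteins, which attack the membranes around intracellular microbes, Gbp5 ran from 503 to 775 (median 613) against 206 to 317 (median 257). Gbp2 ran from 3800 to 6464 (median 4959.5) against 1801 to 3527 (median 2873). Neither overlapped between the ages (log2 fold changes 1.30 and 0.88, adjusted p = 0.00013 and 0.0069), and Gbp4 (0.999, adjusted p = 0.078) and Gbp1 (0.62, adjusted p = 0.28) were not called. Gbp4 was called without rat 80, without rats 78 and 80 together and in the larger set (adjusted p from 0.0015 to 0.16 over its alternatives, those of the smaller set aside).

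The Ifit proteins bind foreign RNA, and Ifih1 encodes the cytoplasmic sensor of long double-stranded RNA. Ifit2 had 1073 to 1917 normalized counts (median 1356.5) at 6 weeks and 605 to 1120 (median 989) at 10 weeks, and Ifih1 had 865 to 1262 (median 1189) and 638 to 918 (median 834). In both genes 5 of 6 younger rats were above every older rat, with log2 fold changes of 0.65 (adjusted p = 0.031) and 0.49 (adjusted p = 0.017). The call of Ifit2 was lost without rat 71, 83 or 86 and without both rats 78 and 80 (adjusted p from 0.033 to 0.063 over the 13 ways of leaving 1 rat out). Ifit1bl, at 26 to 59 against 19 to 26, had a log2 fold change of 0.77 (adjusted p = 0.016), and Ifit3 had 0.48 (adjusted p = 0.12) and was not called. In the larger set alone Ifit1bl, Ifit2 and Ifih1 missed the threshold, with adjusted p of 0.094, 0.13 and 0.11, where their alternatives other than the smaller set started from 0.011, 0.015 and 0.0080.

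Of the factors that carry the interferon signal to these genes, 3 of 9 were called, all higher. Stat2 lay between 575 and 635 (median 618) at 6 weeks and between 361 and 448 (median 399) at 10 weeks. Irf9, the DNA-binding partner of Stat2, lay between 396 and 510 (median 439) and between 290 and 384 (median 306). Neither overlapped between the ages, and their log2 fold changes were 0.60 (adjusted p = 0.00078) and 0.48 (adjusted p = 0.0068). Irf7, which amplifies interferon production once induced, was higher at 6 weeks by more: 240 to 592 (median 386.5) against 121 to 293 (median 161), with 5 of 6 younger rats above all older ones (log2 fold change 1.09, standard error 0.22, adjusted p = 0.0068).

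The other 6 factors described here were not called. Irf4, a lymphoid factor, missed the threshold with a log2 fold change of 0.71 (adjusted p = 0.0517), Irf3, the first responder to nucleic acid sensing, had -0.33 (adjusted p = 0.098), and Irf1, a target of interferon gamma, had 0.26 (adjusted p = 0.20). Irf4 was called without rat 71, 78 or 85, without rats 78 and 80 together, with scaling to equal library totals, with a mean of at least 10 and with limma-trend (adjusted p from 0.030 to 0.14 over its alternatives, those of the smaller set aside). Irf2, Irf5 and Irf8 had 0.11, -0.20 and -0.01.

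**Figure D2:**
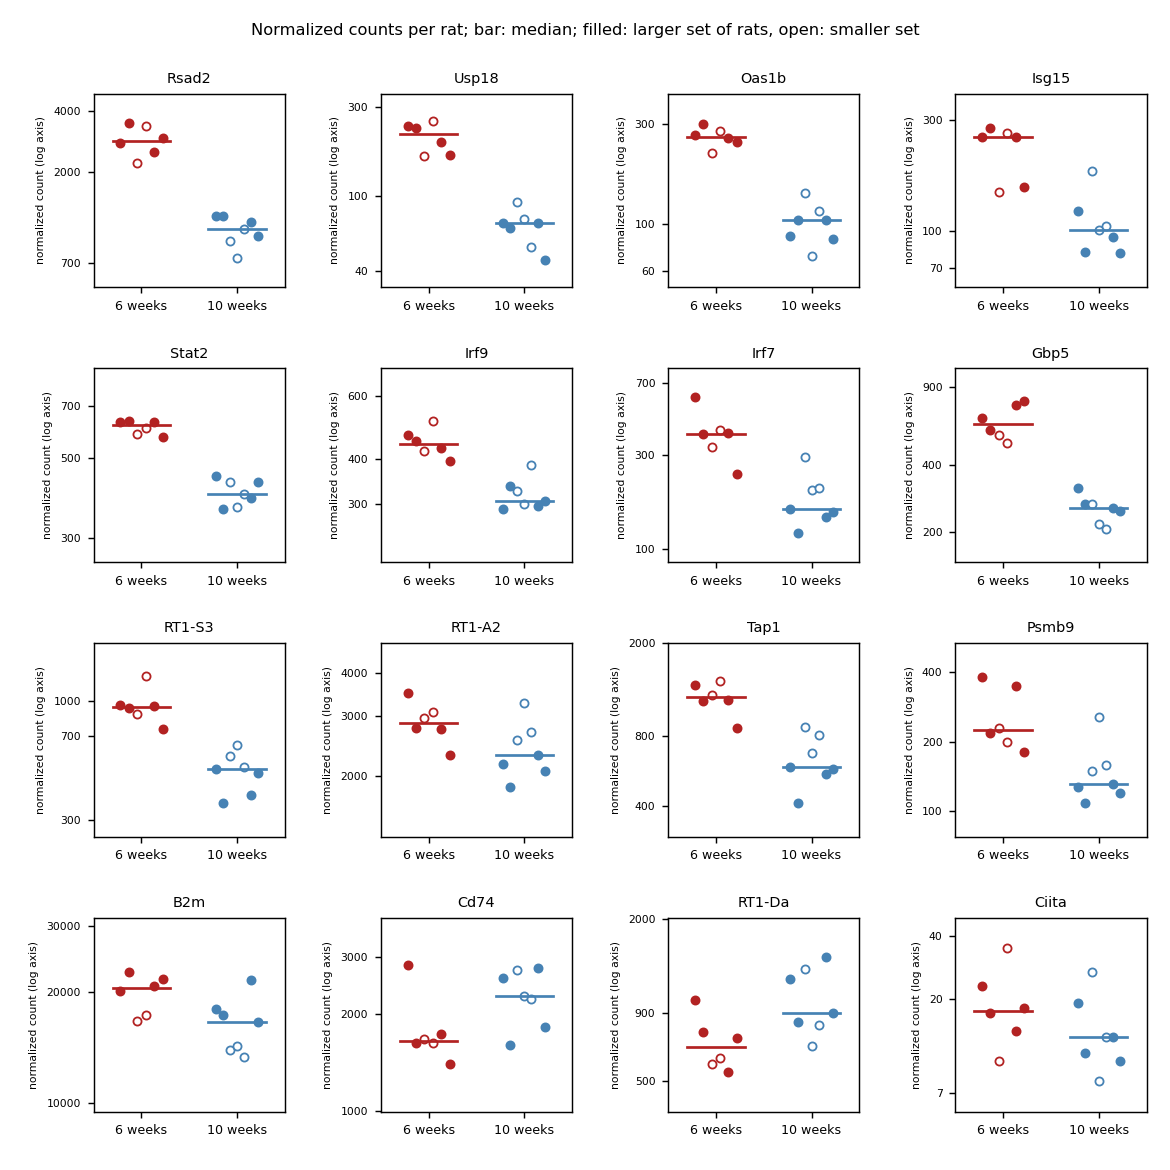
Normalized counts of 16 genes in each rat (vertical log axis), at 6 weeks (6 rats, red) and 10 weeks (7 rats, blue), with the median of each age as a bar. Filled points are the larger set of rats and open points the smaller set. Rsad2, Usp18, Oas1b, Stat2, Irf9, Gbp5 and RT1-S3 do not overlap between the ages, and Cd74 and RT1-Da do.

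Of the class I MHC genes 7 were called higher at 6 weeks. They are non-classical genes, a group that varies less between individuals than the classical genes and includes ligands of natural killer cell receptors. RT1-S3 had 750 to 1280 normalized counts (median 938.5) at 6 weeks and 354 to 637 (median 503) at 10 weeks, and RT1-T24-4 had 435 to 579 (median 519) and 295 to 427 (median 328). RT1-N3 had 139 to 247 (median 185.5) and 74 to 114 (median 86), and RT1-T24-2 had 50 to 94 (median 64) and 14 to 26 (median 21). These 4 genes did not overlap between the ages, with log2 fold changes of 0.96, 0.61, 1.04 and 1.59 and adjusted p of 0.0018, 0.0047, 0.00095 and 0.00017.

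RT1-T24-1, RT1-N2 and RT1-T24-3 were also called, on overlapping values. RT1-T24-1 had 62 to 121 (median 90.5) against 25 to 87 (median 48), with 3 of 6 younger rats above every older one (log2 fold change 0.93, adjusted p = 0.039). RT1-N2 had 187 to 549 (median 299) against 135 to 235 (median 192), with 5 of 6 above (0.77, adjusted p = 0.037). RT1-T24-3 had 150 to 318 (median 228.5) against 93 to 242 (median 135), with 3 of 6 above and rat 78 the highest at 10 weeks (0.72, adjusted p = 0.043). Each of these calls depended on single rats. Without rat 70, 72, 74, 75, 78, 80, 84, 85 or 87 that of RT1-T24-1 was lost (adjusted p from 0.014 to 0.091 over the 13 ways of leaving 1 out). Without rat 70, 71, 72, 74, 78, 83, 84 or 87 that of RT1-N2 was lost (0.012 to 0.085). Without any rat other than 78, 81 or 86 that of RT1-T24-3 was lost (0.013 to 0.091). Without both rats 78 and 80 those of RT1-T24-1 and RT1-N2 were lost too. RT1-M2 was the 1 class I gene called lower, on 12 to 19 normalized counts (median 15) at 6 weeks and 18 to 47 (median 21) at 10 weeks with rat 85 at 47 (log2 fold change -0.65, adjusted p = 0.044). Its call was lost without rat 70, 72, 75, 78, 80, 81, 84, 86 or 87, with scaling to equal library totals, with limma-trend, without both rats 78 and 80 and in the larger set alone (adjusted p from 0.031 to 0.11 over its alternatives, those of the smaller set aside).

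Not all non-classical genes were called higher: besides RT1-M2, called lower, RT1-M3-1 and RT1-M6-1 had log2 fold changes of 0.32 and -0.23 (adjusted p = 0.20 and 0.81), and RT1-M3-1 was called higher in the larger set alone (0.020, and up to 0.38 over its alternatives other than the smaller set).

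Neither the RT1-A genes, the classical class I genes of the rat, nor the RT1-CE genes, which are not classical, were called. The calls therefore do not divide the class I genes into non-classical and classical. RT1-A2 had 2294 to 3510 (median 2857.5) at 6 weeks and 1849 to 3272 (median 2295) at 10 weeks, a log2 fold change of 0.27 (95% interval -0.04 to 0.58, adjusted p = 0.21). RT1-CE4 came nearest among them with 1472 to 1993 (median 1710.5) against 1167 to 1518 (median 1478), a log2 fold change of 0.32 and an adjusted p of 0.0512, and 5 of 6 younger rats were above every older one. It was called without rat 81 or 86 and with a pseudocount of 0.1, a mean of at least 10 or limma-trend (adjusted p from 0.030 to 0.12 over its alternatives, those of the smaller set aside). RT1-CE1, with a log2 fold change of 0.46 (adjusted p = 0.10), was called without rat 81 and in the larger set (adjusted p = 0.039 and 0.025, and up to 0.19 over its alternatives, those of the smaller set aside). The 14 class I genes not called had log2 fold changes from -0.79 to 0.68. Some of them differed by the set of rats: RT1-CE10 lay between 795 and 1002 in the 5 rats of the smaller set and between 260 and 824 in the other 8, and RT1-CE7 lay between 729 and 843 and between 496 and 686, without overlap. Class I genes are near copies of one another, so reads may have been shared among them and the value of a single copy is uncertain.

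In the RefSeq annotation of assembly GRCr8, where the order may differ from the build used for counting, RT1-N3, RT1-S3, RT1-T24-4, RT1-T24-3 and RT1-T24-1 follow one another by start among the protein-coding genes of chromosome 20, with RT1-T24-2, listed there as a long noncoding RNA, before the last. All 6 were called higher, where 8.71% of all genes were. The 6 are not all separate stretches: RT1-T24-4 (2689329 to 2749848) overlaps RT1-T24-3 (2723043 to 2752691). RT1-T24-2 (2739226 to 2743710) lies inside the spans of both. Reads may therefore have been shared among these 3, so they are not separate neighbours. RT1-CE10, RT1-CE5, RT1-CE4, RT1-CE7 and RT1-CE3 also follow one another there by start, and none of them was called in limma (1 higher and 1 lower at an unadjusted p under 0.05). The spans of RT1-CE5 and RT1-CE4 overlap, and RT1-CE7 lies inside both. Another run on the same chromosome holds Tap2, Psmb8, Tap1 and Psmb9, with class II genes RT1-DOb before it and RT1-DMb after it.

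In that run Tap1, a subunit of the peptide transporter, was called higher at 6 weeks. It had 862 to 1372 normalized counts (median 1171.5) at 6 weeks and 411 to 874 (median 585) at 10 weeks, and 5 of 6 younger rats were above every older one (log2 fold change 0.90, standard error 0.17, adjusted p = 0.0050). Its partner Tap2 had a similar estimate with a wide interval (0.91, 95% interval 0.07 to 1.75, adjusted p = 0.13) and was not called, on 225 to 426 (median 342.5) against 52 to 342 (median 186). B2m, the invariant light chain of every class I molecule, had 16713 to 22550 (median 20415) against 13307 to 21463 (median 16548), which overlapped (log2 fold change 0.29, 95% interval 0.01 to 0.57, adjusted p = 0.15). Tapbp, which holds class I molecules at the transporter, had 0.64 (adjusted p = 0.10) and was not called. Tap2 and Tapbp were called higher in the larger set alone, which has less spread by construction, and Tapbp also without rat 81 (adjusted p from 0.038 to 0.22 and 0.017 to 0.20 over their alternatives, those of the smaller set aside). So in this group the estimates were all positive, and 1 of 4 passed.

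The 3 immunoproteasome subunits, which interferon substitutes into the proteasome to make peptides that suit class I molecules, gave similar estimates. Psmb9 had 180 to 383 (median 224) at 6 weeks and 108 to 255 (median 131) at 10 weeks, with rat 81 alone among the older rats above the younger median (log2 fold change 0.79, standard error 0.23, adjusted p = 0.034). Its call was lost without rat 70, 72, 74, 78, 84, 85 or 87 and without both rats 78 and 80 (adjusted p from 0.0081 to 0.079 over its alternatives, those of the smaller set aside). Psmb10 had 192 to 343 (median 231.5) against 68 to 309 (median 130), and Psmb8 had 257 to 677 (median 428) against 169 to 473 (median 239). Neither passed (log2 fold changes 0.84 and 0.68, adjusted p = 0.069 and 0.10), and the ages overlapped in all 3 genes. Both were called without rat 81 and in the larger set, and Psmb10 with limma-trend (adjusted p from 0.011 and 0.034 up to 0.15 and 0.22 over their alternatives, those of the smaller set aside).

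Class II MHC genes, which carry peptides to helper T cells, gave no call in the 13 rats. RT1-Da, an alpha chain, had 540 to 1000 normalized counts (median 668) at 6 weeks and 674 to 1444 (median 897) at 10 weeks (log2 fold change -0.52, 95% interval -0.96 to -0.09, adjusted p = 0.096), and was called lower without rat 81 (adjusted p = 0.046, and up to 0.22 over its alternatives, those of the smaller set aside). RT1-Ba had 303 to 536 (median 379) against 305 to 737 (median 450), and RT1-Db1 had 154 to 358 (median 204) against 200 to 498 (median 252). All 3 overlapped between the ages, with RT1-Ba and RT1-Db1 at log2 fold changes of -0.26 and -0.34 (adjusted p = 0.42 and 0.36). The beta chain RT1-Bb had -0.17. RT1-DOb and RT1-DMb encode chains of the DO and DM molecules, which govern peptide loading: RT1-DOb had -1.15 on at most 18 normalized counts, and the 2 RT1-DMb genes, whose values were equal in 6 of 13 rats, had 0.54 and 0.40. Cd74, the chain on which class II molecules assemble, had 1394 to 2828 (median 1646.5) against 1599 to 2773 (median 2262), a log2 fold change of -0.35 (95% interval -0.73 to 0.04, adjusted p = 0.20). Ciita, the coactivator that class II transcription depends on, had 10 to 35 (median 17.5) against 8 to 27 (median 13), with 0.41 (adjusted p = 0.37). The median log2 fold change was -0.26 for the 7 class II genes and 0.51 for the 22 class I genes, and the difference between the groups was not tested. In the larger set alone the class II median was 0.030, of the other sign, and the class I median 0.71, and in the smaller set they were -0.56 and 0.17.

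Single rats stood out in the class II values. Rat 78 had the highest RT1-Db1, 498, where the median of its age was 252. Rat 70 had the highest Cd74 at 6 weeks, 2828, and rats 85 and 78 the highest at 10 weeks, 2773 and 2732. The same 3 rats had the most Cr2, a complement receptor of B cells: 45 in rat 70, where the median of its age was 0.5, and 130 in rat 78 and 31 in rat 85, where the median was 4. Across the 13 rats Cd74 was related to Cr2 on the log2 scale with Pearson's r = 0.86 (permutation p = 9e-05, adjusted p = 0.0014) and Spearman's rho = 0.80 (permutation p = 0.0019, adjusted p = 0.029). Without rats 70 and 78, the 2 farthest from the median of Cr2, r was 0.82. Within the ages r was 0.85 at 6 weeks (exact permutation p = 0.14) and 0.89 at 10 weeks (exact permutation p = 0.0075), and within the larger set it was 0.87 (exact permutation p = 0.012), while the smaller set held too few rats. In the larger set rho was 0.68 (exact permutation p = 0.075), and at 10 weeks it was 0.955 (exact permutation p = 0.0040). At 6 weeks rho was 0.33 (exact permutation p = 0.53), with Cr2 at 0 in 3 of 6 rats and high in rat 70.

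In all, 10 relations set Cd74 and B2m against the most abundant gene of 5 immune cell lists (Cr2 for B cells, Cd4 for T and NK cells, Itgax for dendritic cells, Cd14 for macrophages, Kit for mast cells), and 1 of the 10 passed adjustment. Kit was lower at 6 weeks where the other 6 mast cell genes were higher, so its relations may not stand for mast cells. B2m against Cr2 did not pass (r = -0.10, permutation p = 0.74, adjusted p = 0.85; rho = -0.07, permutation p = 0.82). Without rats 70 and 78 this r was 0.12. Cd74 against Cd4 had r = 0.65 (permutation p = 0.014, adjusted p = 0.11) and rho = 0.55 (permutation p = 0.052, adjusted p = 0.19), and without rats 78 and 85 r was 0.41. Cd74 against Cd14 had r = 0.44 (permutation p = 0.12, adjusted p = 0.47) and rho = 0.67 (permutation p = 0.015, adjusted p = 0.11), and without rats 70 and 81 r was 0.41. Within the larger set r was 0.55 and rho 0.81 (exact permutation p = 0.16 and 0.018), at 6 weeks 0.79 and 0.55 (0.039 and 0.27), and at 10 weeks 0.33 and 0.71 (0.48 and 0.088).

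Other genes of the same pathways came from a list of 122 symbols, of which 108 were measured. Of the other symbols, Rigi, Sting1, Cgas and Marchf8 are later names of Ddx58, Tmem173, Mb21d1 and March8, which are among the 108. The rest were not analysed here. Of the 108, 32 were higher at 6 weeks and 3 lower, against the shares of all genes given above, with a median log2 fold change of 0.24. The calls lay mostly in other interferon-induced genes, with 22 of 44 higher and 0 lower in limma (26 and 0 at an unadjusted p under 0.05), and in nucleic acid sensors and adaptors, with 5 of 18 higher and 0 lower (6 and 0 at an unadjusted p under 0.05). Of the other lists, 1 of 14 interferon receptors and kinases was higher, as were 2 of 15 class I pathway genes and 2 of 17 class II pathway genes, with 1 and 2 lower. The receptor gene was Ifnar1, the class I pathway gene lower was Psme3, and those higher were Psme2 and Psmb5. Lgmn and Ifi30, both enzymes of the endosome, were higher in the class II list. The call of Ifnar1 was lost without any rat other than 72 or 85, without rats 78 and 80 together and in the larger set (adjusted p from 0.014 to 0.23 over its alternatives, those of the smaller set aside). That of Psme2 was lost without rat 70, 71, 72, 74, 78, 83, 84, 86 or 87 (0.015 to 0.091), and that of Psmb5 without rat 70, 71, 72, 74, 78, 83, 84, 85 or 87 and without rats 78 and 80 together (0.018 to 0.10). Ifnar1, Psme2, Psmb5, Lgmn and Ifi30 were named after their values were seen.

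Dhx58, a helicase that tunes RNA sensing, had 165 to 217 normalized counts (median 184) at 6 weeks and 59 to 95 (median 68) at 10 weeks. The ages did not overlap (log2 fold change 1.36, standard error 0.12, adjusted p = 7.26e-05). Ddx60, an antiviral helicase, had 207 to 397 (median 305.5) against 65 to 285 (median 103), with rat 78 at 285 and the other older rats at no more than 123 (log2 fold change 1.47, adjusted p = 0.0052). Lgals3bp, a secreted galectin ligand, had 625 to 993 (median 695.5) against 206 to 497 (median 309), and Rtp4, a chaperone induced by interferon, had 159 to 232 (median 210.5) against 61 to 112 (median 86). Neither of them overlapped (log2 fold changes 1.24 and 1.21, adjusted p = 0.0018 and 0.00049). Ifi27, a small membrane protein induced by type I interferon, had 1193 to 2427 (median 1606) against 428 to 1314 (median 654), with 5 of 6 younger rats above all older ones (log2 fold change 1.22, adjusted p = 0.0046).

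The 3 lower genes did not overlap between the ages either. Nfya and Nfyb, subunits of the CCAAT-binding factor that class II promoters and many others use, had 319 to 498 (median 445) against 601 to 758 (median 702) and 163 to 300 (median 227.5) against 310 to 370 (median 317). Psme3, an activator of the nuclear proteasome, had 610 to 981 (median 849.5) against 1104 to 1529 (median 1238). Their log2 fold changes were -0.70, -0.51 and -0.64, with adjusted p of 0.0023, 0.021 and 0.0055, and in the larger set alone Nfyb missed the threshold (adjusted p = 0.072, the highest of its alternatives other than the smaller set, which started from 0.013).

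Markers of cell types that such pieces of duct may hold were followed in 11 lists of 91 genes, of which 67 were measured. Markers of immune cells, mast cells and the B cell gene Cd79b aside, gave no higher call. Of 6 leukocyte genes 0 were called in limma (1 at an unadjusted p under 0.05), and their sum ran from 825 to 1377 (median 1059) at 6 weeks and from 754 to 1457 (median 1053) at 10 weeks, with Cd48 the most abundant. Cd48 supplied 53.2% of the sum and had a log2 fold change of 0.46 (adjusted p = 0.11), and it was called higher without rat 85 (adjusted p = 0.046, and up to 0.38 over its alternatives, those of the smaller set aside). Ptprc, which encodes the pan-leukocyte antigen, had 91 to 250 (median 180) against 137 to 392 (median 213), a log2 fold change of -0.47 (adjusted p = 0.27), and Coro1a had -0.12 (adjusted p = 0.83). Of 11 macrophage genes 0 were called in limma (2 at an unadjusted p under 0.05), with sums of 1755 to 3167 (median 1989.5) against 1694 to 3119 (median 2173), Cd14 the most abundant (-0.09, adjusted p = 0.83) and Csf1r and Adgre1 at 0.30 (adjusted p = 0.40) and -0.72 (adjusted p = 0.071, called lower without rat 86, 0.047 to 0.19 over its alternatives other than the smaller set). Of 5 T and NK cell genes 0 were called in limma (2 at an unadjusted p under 0.05), with sums of 130 to 219 (median 176) against 145 to 343 (median 190), and Cd4, Cd247 and Lck, Cd4 the most abundant, had -0.31, -0.37 and 0.31. The others, Klrb1c and Gzma, at no more than 23 and 74 normalized counts, had -1.43 and -0.93 (adjusted p = 0.13 and 0.086), and were called lower without rat 75 and without rat 81 (adjusted p = 0.048 and 0.043, and up to 0.31 and 0.22 over their alternatives, those of the smaller set aside). Of 6 dendritic cell genes Zbtb46 was lower (-0.39, adjusted p = 0.038), a call lost without rat 70, 71, 72, 78, 83, 84 or 87, with scaling to equal library totals and without both rats 78 and 80 (adjusted p from 0.032 to 0.085 over its alternatives, those of the smaller set aside), with sums of 375 to 701 (median 547.5) against 445 to 697 (median 567) and Itgax, the most abundant, at 0.10 (adjusted p = 0.75).

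B cell markers were near the floor. The 4 genes summed to 7 to 136 (median 14) at 6 weeks and 2 to 200 (median 12) at 10 weeks. Ms4a1 was at 0 in 3 of 6 younger and 3 of 7 older rats. Ms4a1 and Cr2, the most abundant, had log2 fold changes of -0.57 and -1.35 (adjusted p = 0.74 and 0.47), and Cd79b, called higher in limma, stood at 1 to 16 against 0 to 3 normalized counts and was named after its values were seen. Its call was lost without rat 70, 74, 75, 80, 81 or 87, with a pseudocount of 0.1, with limma-trend, without both rats 78 and 80 and in the larger set (adjusted p from 0.017 to 0.16 over its alternatives, those of the smaller set aside).

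Some mast cell, fibroblast and adipocyte genes were also higher at 6 weeks. Of 7 mast cell genes 6 were higher and Kit, which luminal progenitor cells also express, was lower (log2 fold change -0.71, adjusted p = 0.034). Kit was the most abundant and supplied 75.5% of the list's sum, which ran from 2220 to 3976 (median 3117.5) at 6 weeks and from 1574 to 3803 (median 2963) at 10 weeks. Its call was lost without rat 70, 72, 74, 75, 78, 84, 85, 86 or 87, with scaling to equal library totals and without both rats 78 and 80 (adjusted p from 0.0033 to 0.075 over its alternatives, those of the smaller set aside). Cpa3, a mast cell protease, had 200 to 587 (median 379) against 9 to 116 (median 19), without overlap (log2 fold change 3.86, adjusted p = 0.00049). Tpsab1 and Ms4a2 were at 0 in 3 and 2 of the 7 older rats and in 0 of 6 younger rats. Of 5 fibroblast genes 3 were higher, and their sum of 35859 to 88381 (median 63525) did not overlap with that at 10 weeks, 8250 to 25538 (median 21970). Col1a1, the most abundant of them, supplied 76.1% of the sum. It had a log2 fold change of 1.92 (adjusted p = 0.0043) and Pdgfra had 0.13 (adjusted p = 0.78).

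Of 4 adipocyte genes Adipoq and Plin1 were higher (log2 fold changes 2.41 and 1.94, adjusted p = 0.013 and 0.019) at no more than 56 and 19 normalized counts, and Fabp4, with 96.5% of the list's sum of 1474 to 2387 (median 1825.5) against 1373 to 2628 (median 1851), was not (-0.09, adjusted p = 0.76). With a pseudocount of 0.1 both calls missed the threshold (adjusted p = 0.054 and 0.053, the highest of their alternatives other than the smaller set, which started from 0.0052 and 0.010). Adipoq was at 0 in 1 older rat and Plin1 in 2. Of 8 luminal epithelial genes 2 were lower, Cdh1, the most abundant (-0.47, adjusted p = 0.017), and Epcam (-0.39, adjusted p = 0.045, lost on leaving out any 1 of the 13 rats, rats 78 and 80 together, with scaling to equal library totals and in the larger set, 0.030 to 0.22 over its alternatives other than the smaller set), with sums of 44511 to 69979 (median 63963) against 63250 to 86396 (median 74970) and Krt8 at -0.18 (adjusted p = 0.59). Of 6 basal genes 0 were called in limma (1 at an unadjusted p under 0.05), with sums of 17912 to 28393 (median 26113) against 25316 to 35053 (median 28282), Myh11 the most abundant (-0.34, adjusted p = 0.17, called lower without rat 81, 0.0497 to 0.34 over its alternatives other than the smaller set) and Krt14 and Krt5 at 0.15 and 0.32 (adjusted p = 0.70 and 0.28). Of 5 endothelial genes 0 were called in limma (1 at an unadjusted p under 0.05), with sums of 5286 to 9166 (median 7241.5) against 5063 to 8207 (median 5887), and Vwf, the most abundant, and Cdh5 had 0.29 and 0.40 (adjusted p = 0.40 and 0.14). The part that these cell types have in the changes of the MHC and interferon genes was not tested.

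**Figure D3:**
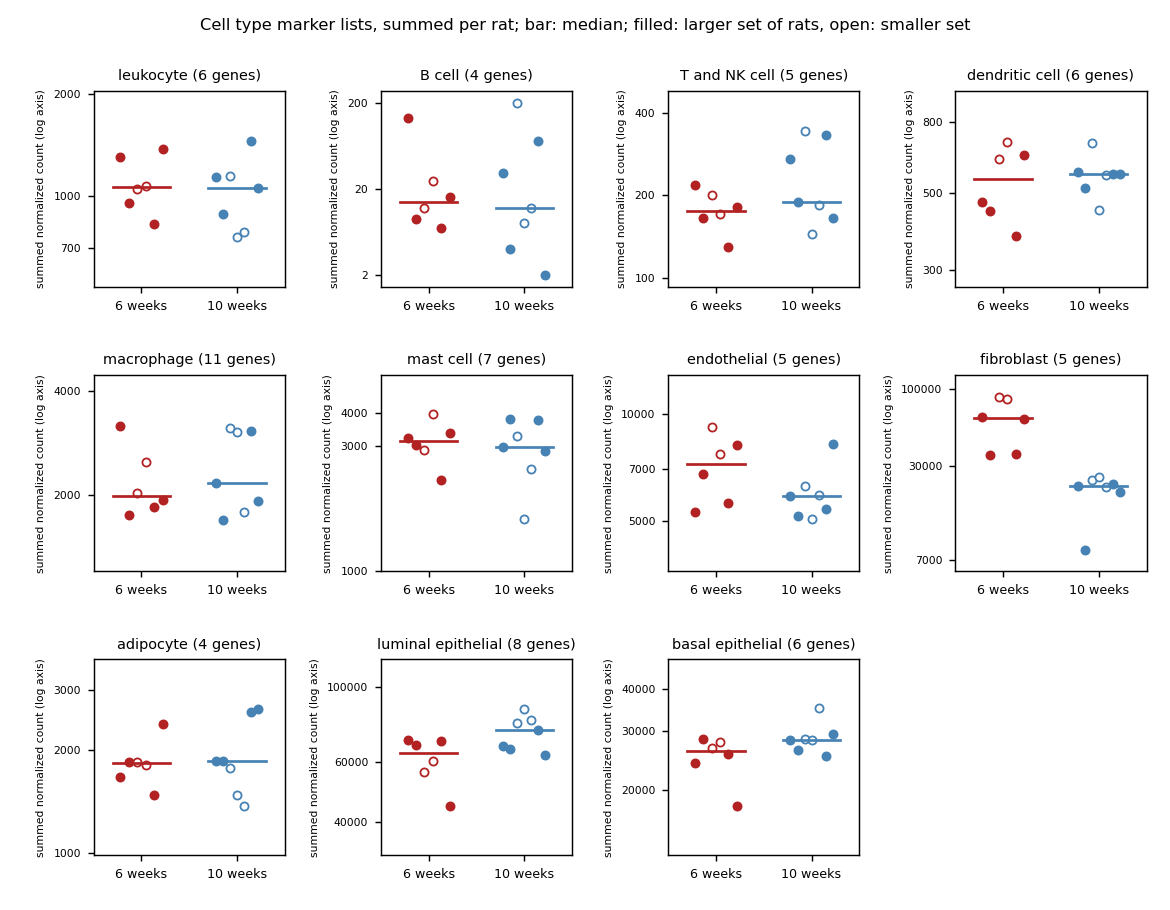
Summed normalized counts of each marker list in each rat (vertical log axis), at 6 weeks (6 rats, red) and 10 weeks (7 rats, blue), with the median of each age as a bar. Filled points are the larger set of rats and open points the smaller set. The fibroblast sums, 76.1% of them from Col1a1, do not overlap between the ages, while the leukocyte sums do (825 to 1377 and 754 to 1457).

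The promoters of the group were read for 2 short motifs, because members that moved together include known targets of the same factors. RefSeq windows of 300 bases, 250 before and 50 from a start of each gene in assembly GRCr8, were matched by symbol to 54 of the 66 symbols. Mx2, Ciita, Irf2, Isg15, RT1-CE7, Ifit2, Usp18, Oas1g, Oas2, RT1-DMb, RT1-M2 and RT1-CE9-ps1 had no match. In 36 of the 54 the start used lay 4 to 541 bases inside the outer end of the gene in the RefSeq table of genes. GAAANNGAA on either strand (TTCNNTTTC on the other), the core of the interferon-stimulated response element, occurred in 21 of the 54 windows (38.9%), and in 2608 of 27457 first windows of all genes (9.50%). TTCNNNGAA, the gamma-activated site, which reads the same on both strands, occurred in 7 (13%) and in 8.68% of all genes. No match of the one motif overlapped a match of the other in the 54 windows. The first motif was present in 12 of 15 effectors, 4 of 4 class I loading genes and 2 of 3 immunoproteasome genes, and in 2 of 18 class I MHC genes, 1 of 8 STAT and IRF factors and 0 of 5 class II genes. It was present in 11 of the 20 matched genes called higher and in 10 of the 34 not called. These are matches of letters, described without a test. Only the 2 fixed patterns were looked for, so a window without a match may still hold such an element in another form.

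5 windows show where the motif lay in genes called higher in the younger rats, and 1 window, that of RT1-Da, holds neither motif. They are given 5′ to 3′ on the strand of the gene with the matches of either motif in capitals, as RefSeq lists them for GRCr8: Rsad2 on chr6:48788071-48788370 (minus strand), Oas1b on chr12:41395803-41396102 (minus strand), Gbp5 on chr2:233910749-233911048 (plus strand), RT1-N3 on chr20:2666239-2666538 (plus strand), Tap1 on chr20:4668494-4668793 (minus strand) and RT1-Da on chr20:4515165-4515464 (plus strand). GAAANNGAA began 146 bases before the start in Rsad2, 120 in Tap1, 159 and 55 in Gbp5, and in Oas1b (59 and 53) and RT1-N3 (212 and 206) as 2 matches that overlap each other. The run in capitals nearest the 5′ end of Oas1b is a match of TTCNNNGAA. Tap1 and its neighbour Psmb9 start in opposite directions with 456 bases between the starts that the windows use, and the window of Psmb9, which shares 44 bases with that of Tap1, holds neither motif.
Rsad2: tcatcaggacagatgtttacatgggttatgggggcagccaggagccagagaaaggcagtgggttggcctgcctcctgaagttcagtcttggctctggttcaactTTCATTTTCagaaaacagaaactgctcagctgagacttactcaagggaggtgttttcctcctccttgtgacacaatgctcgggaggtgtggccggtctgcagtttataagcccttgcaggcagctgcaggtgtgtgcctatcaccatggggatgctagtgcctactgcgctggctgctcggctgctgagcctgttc
Oas1b: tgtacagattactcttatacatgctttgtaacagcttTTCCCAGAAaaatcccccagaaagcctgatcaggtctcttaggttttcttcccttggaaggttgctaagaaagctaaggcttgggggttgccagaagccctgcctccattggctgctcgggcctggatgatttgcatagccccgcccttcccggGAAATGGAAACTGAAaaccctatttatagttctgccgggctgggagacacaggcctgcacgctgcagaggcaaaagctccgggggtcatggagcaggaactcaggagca
Gbp5: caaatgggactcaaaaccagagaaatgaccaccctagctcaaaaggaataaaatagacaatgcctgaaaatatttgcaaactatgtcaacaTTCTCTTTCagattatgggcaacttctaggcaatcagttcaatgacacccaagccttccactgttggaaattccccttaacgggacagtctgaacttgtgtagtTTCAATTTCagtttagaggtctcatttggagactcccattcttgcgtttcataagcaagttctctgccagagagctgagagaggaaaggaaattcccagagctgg
RT1-N3: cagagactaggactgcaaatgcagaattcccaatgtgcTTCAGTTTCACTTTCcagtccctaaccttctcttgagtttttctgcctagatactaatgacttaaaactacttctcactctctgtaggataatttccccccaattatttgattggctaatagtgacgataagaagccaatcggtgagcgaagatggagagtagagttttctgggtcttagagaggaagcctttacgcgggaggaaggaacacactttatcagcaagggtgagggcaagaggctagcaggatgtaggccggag
Tap1: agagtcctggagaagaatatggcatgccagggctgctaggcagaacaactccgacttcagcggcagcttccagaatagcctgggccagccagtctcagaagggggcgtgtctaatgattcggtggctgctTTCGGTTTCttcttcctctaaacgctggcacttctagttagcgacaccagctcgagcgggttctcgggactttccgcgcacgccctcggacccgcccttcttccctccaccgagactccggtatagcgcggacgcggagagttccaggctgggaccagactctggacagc
RT1-Da: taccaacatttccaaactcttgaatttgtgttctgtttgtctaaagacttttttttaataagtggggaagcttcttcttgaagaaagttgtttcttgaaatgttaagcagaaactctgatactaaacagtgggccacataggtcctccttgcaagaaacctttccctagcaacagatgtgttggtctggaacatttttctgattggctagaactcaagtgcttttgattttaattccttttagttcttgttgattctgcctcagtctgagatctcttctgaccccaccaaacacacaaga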

How the data were processed

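Deposited values were whole-number scores per gene and rat, called normalized counts here: the authors estimated counts with RSEM 1.2.22, and the values given are whole numbers after a normalization. In 7 of the 13 libraries some whole numbers from 1 to 30 are never seen, as multiplying and rounding would leave, and 6 have no such gaps. The submitters' processing notes name build rn5; the annotation is not given in the sources used here. Since these are not raw counts, the count tools of the study were not used, and the depth of sequencing behind each value is unknown. Columns holding the authors' own comparison of the ages (fold changes, test statistics, p-values and status) and a nucleus and cytoplasm label were not used.

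All 14790 genes with a mean of at least 1 were fitted on log2(normalized count + 1) with limma 3.58.1 (lmFit and eBayes) in R 4.3.3, 6 rats at 6 weeks against 7 at 10 weeks with no covariate, two-sided, with Benjamini-Hochberg adjustment over all genes. Fold changes of low genes are understated by the pseudocount of 1. The fit was also run on simulated data, from which no result is given here. Overlap was judged on normalized counts, which carry no correction for gene length, so the most abundant gene is the one with the most counts. Relations across rats used two-sided permutation tests with 100000 resamples, exact within an age or set, run in scipy 1.17.1, pandas 2.3.3 and numpy 2.4.6 under Python 3.11.15, and figures used matplotlib 3.10.9. All 68 genes described passed the filter. The p-values of relations were adjusted over 15 relations, of which 10 are given. The rule for members gives 70 genes, and 2 of them, 5 relations and 1 marker gene are not reported here.

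Named genes were members with an adjusted p under 0.05, in each role the 2 with the highest mean and the 2 with the largest change among means of at least 50, the 5 pathway genes with the largest change in each direction among those called with means of at least 50, the most abundant and first-listed genes of each marker list and some members at an adjusted p of 0.05 to 0.1. Further names were picked with the values known. Members and lists were chosen with earlier results of these data known. Alternatives were 2 other scalings, a pseudocount of 0.1, a mean of at least 10, limma-trend, the set of rats as a term (its rule fixed beforehand, its rats read from the values) and leaving out each rat, and, chosen after seeing the data, leaving out rats 78 and 80 and using each set of rats alone. Each library came from its own rat, so p-values measure the spread between rats.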

Additional observations from a re-analysis of the deposited data

Results flagged for a closer look

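Within an age, 20 of 214 groups of rats (107 genes at 2 ages) had 1 rat whose distance to its nearest neighbour took up an unusually large share of the range of the age, and chance gives about 1 in 20 groups. Rat 78 at 10 weeks stood highest in 7: RT1-T24-3 (242 normalized counts), RT1-Db1 (498), Isg15 (182), Ddx60 (285), Mx1 (366), Cr2 (130) and Ms4a1 (54). Rat 70 at 6 weeks stood highest in 4: Cd74 (2828), RT1-DOb (18), Cr2 (45) and Ms4a1 (24). Rat 81 at 10 weeks was highest in Psmb9 (255) and Cd14 (2012) and lowest in Myh11 (8019). Rat 85 at 10 weeks was highest in RT1-M2 (47) and Cpa3 (116). Of the remaining 4, rat 74 at 10 weeks was highest in Nfyb (370), rat 75 at 6 weeks in Oas1i (30), rat 80 at 6 weeks in Oasl2 (263) and rat 86 at 6 weeks in Cd48 (933). The B cell genes Cr2 and Ms4a1 stood out in the same 2 rats.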

How the results depend on the processing

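The smaller set of rats alone, chosen like the larger set and the omission of rats 78 and 80 after seeing the data, gave 0 calls in limma among the 68 members, the 108 pathway genes and all genes, in either direction (24 of the 68 and 1976 of 14770 genes at an unadjusted p under 0.05). With any 1 rat left out, 21 to 30 members were higher and 0 to 1 lower. All genes called ran from 1411 to 2680 (803 to 1461 higher, 608 to 1219 lower). Members lower numbered 0 with library size scaling, with limma-trend and without rats 78 and 80, and 2 with the set of rats as a term. In the larger set 2003 genes were higher and 8 pathway genes lower. Of 2348 alternative values of the 107 genes named, 2076 kept direction and side of the threshold, 188 lost the call, 46 gained it and 38 changed sign, in genes not called in all 13 rats. This tally alone also counts the calls gained with the set of rats as a term, which are left aside elsewhere. Among members, in the larger set log2 fold changes were 0.78 for RT1-M6-1, 0.26 for RT1-Bb, 0.030 for RT1-DOb and for the median of class II genes, -0.12 for Gbp1, -0.17 for Oas3 and 0.10 for Oasl. In the smaller set they were -0.16 for RT1-M3-1, -0.082 for RT1-CE10, -0.56 for 1 RT1-DMb gene and 0.050 for Irf8. Without rats 78 and 80 they were 0.079 for RT1-M6-1, 0.017 for Irf8 and -0.24 for Oas3, and library size scaling gave 0.035 for Irf8. Leaving out 1 rat gave -0.56 to 0.014 for RT1-M6-1, -0.40 to 0.0086 for RT1-Bb, -0.087 to 0.047 for Irf8 and -0.082 to 0.26 for Oas3. Among markers, in the larger set log2 fold changes were 0.080 for Coro1a, 0.027 for Cr2, 0.40 for Ms4a1, -0.16 for Itgax, 0.25 for Cd14 and 0.15 for Krt8, and without rats 78 and 80 that of Ms4a1 was 0.34. In the smaller set the values were 0.22 for Fabp4, -0.29 for Krt14 and -0.016 for Krt5. Leaving out 1 rat gave -0.35 to 0.034 for Coro1a, -1.25 to 0.10 for Ms4a1, -0.19 to 0.10 for Cd14 and -0.034 to 0.25 for Pdgfra. The cause was not tested. No paired analysis was possible because rat numbers are not shared between the ages. The scaling removes the sequencing depth, so the precision of low values cannot be stated, and genes such as Ms4a1 with values at 0 are the least certain. Age cannot be told apart from anything else that differed between the 2 groups of rats, and the cell types behind a change cannot be told from bulk RNA.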
